A study of Homo sapiens with 6 samples.

Results

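The p53 target genes were followed in SW872 cells, a human liposarcoma line, after exposure to Apatinib, a small-molecule inhibitor of the tyrosine kinase of VEGFR2. The members were 31 genes that p53 is known to induce, found by their symbols among the 57773 genes of the count table, and each symbol matched 1 row. The Apatinib group had 3 replicates given 18 μM Apatinib for 24 h, and the control group had 3 replicates with no treatment. The labels do not say whether the controls received the solvent of the drug. All 6 samples were cultures of the same line in RPMI-1640 medium with serum, so the values describe 1 cell line at 1 dose and 1 time, and each replicate gave 1 RNA library. The libraries held 17043314 to 22067558 counts. The groups did not overlap in the share of mitochondrial counts (5.16 to 5.69% with Apatinib, 4.47 to 5.11% in the controls), the share of the 10 highest genes (6.33 to 7.03% against 5.46 to 6.14%) or the genes detected (24414 to 25169 against 25569 to 25866), and the part of these differences in the results was not tested. The 7 mesenchymal markers listed differed widely in level. Vimentin lay between 881 and 1263 FPKM (fragment counts divided by transcript length and library size) and FN1 between 273 and 440 FPKM. COL1A1 lay between 3.49 and 4.57 FPKM and THY1 between 1.02 and 1.81 FPKM. The 7 fat cell markers listed were mixed too. FABP4, ADIPOQ and CEBPA had 0 counts in every library, but PPARG lay between 19.7 and 27.1 FPKM, and LPL was called higher with Apatinib at a log2 fold change of 0.84 (edgeR FDR 0.0238). Counts and FPKM did not always match, since CEBPA was listed at 0.0579 to 0.319 FPKM without a count and CD68, with 0 or 1 counts, at 1.79 to 11.8 FPKM. Controls 1 and 2 were far closer to each other than any other replicates of a group. Their counts differed with a chi-square of 2.27 per gene, against 18.2 to 44.5 in the other pairs, so the control spread rests in large part on control 3. The labels do not say whether the controls were separate cultures. Results of the members are therefore also given with controls 1 and 2 summed as 1 sample, which leaves 2 control samples. The other gene lists described below are not given in that way.

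The protein p53 is a transcription factor that is held low by MDM2 and is stabilised by DNA damage and other stresses. It then binds a response element made of a pair of 10-base half-sites and raises genes that stop the cell cycle, repair DNA, promote cell death or feed back on p53 itself. Several of its targets also answer to other stress regulators without p53. GADD45A, GADD45B and GDF15 are well known for this, since the ATF4 and CHOP branch of the stress response and immediate early factors raise them too, and they were set against the other 28 members.

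To show which of these regulators have a recognisable site close to the start of the members, the promoters (250 bases before to 50 after each start) of 27 members were read from the RefSeq table of build GRCh38.p14, and both strands were searched. The table held no promoter for GADD45A, PHLDA3, ASCC3 and TP53INP1. A half-site was an exact match to RRRCWWGYYY, where R is A or G, W is A or T and Y is C or T. Sites with any mismatch were not counted, also where such a site lay beside an exact half-site. A complete p53 response element was a pair of exact half-sites with a spacer of up to 13 bases. It was found in 1 of the 27 members (3.7%) and in 0.0366% of the 27305 genes in the table. A p53 half-site, which includes those inside a complete element, was found in 7 members (25.9%), against 8.06% of all genes. The member with the complete element was DDB2. Its 30-base window lies on the plus strand at chr11:47214974-47215003, just after the start, and capitals mark the element.
DDB2: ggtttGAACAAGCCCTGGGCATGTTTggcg

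The 6 other members with a half-site were SESN1 (chr6:109009018-109009047, minus strand), FDXR (chr17:74872986-74873015, minus), AEN (chr15:88621296-88621325, plus), RPS27L (chr15:63157517-63157546, minus), PLK2 (chr5:58460199-58460228, minus) and EI24 (chr11:125569457-125569486, plus). They are shown because they are the members in which the letters of p53 binding can be seen next to the start. Each window is written along the strand of its gene, and capitals mark the half-site.
SESN1: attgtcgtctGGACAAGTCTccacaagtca
FDXR: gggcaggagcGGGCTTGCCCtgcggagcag
AEN: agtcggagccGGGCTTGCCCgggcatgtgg
RPS27L: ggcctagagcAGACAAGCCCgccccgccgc
PLK2: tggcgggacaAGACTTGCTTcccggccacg
EI24: cgtgcggcccGGGCATGCCCagtgcgggcg

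Sites of the other regulators were sparse. The AP-1 site TGANTCA was present in 3 of the 27 members (11.1%, against 9.37% of all genes), among them PERP. The cyclic AMP element TGACGTCA was present in 1 member, PPM1D (3.7%, against 2.25%), and TGATGNAAN, the amino acid response element bound by ATF4, in 1 member, PLK3 (3.7%, against 4.45%). The windows lie at chr6:138107503-138107532 on the minus strand for PERP, at chr17:60600121-60600150 on the plus strand for PPM1D and at chr1:44800233-44800262 on the plus strand for PLK3, with the site in capitals.
PERP: gcgggcgcgctcTGAGTCAccggaatctag
PPM1D: agagagccgagTGACGTCAgcgggggagaa
PLK3: gagcttctgggTGATGTAAGgccgggaatg

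GADD45B and GDF15, 2 of the 3 stress-shared members, had no exact match to any of these sites in their promoter windows. Their 250 bases before the start are shown because the largest differences below belong to this group, at chr19:2475877-2476126 for GADD45B and chr19:18385908-18386157 for GDF15, both on the plus strand, all in lower case since no site was found. Elements farther from the start or inside the genes lie outside these windows.
GADD45B: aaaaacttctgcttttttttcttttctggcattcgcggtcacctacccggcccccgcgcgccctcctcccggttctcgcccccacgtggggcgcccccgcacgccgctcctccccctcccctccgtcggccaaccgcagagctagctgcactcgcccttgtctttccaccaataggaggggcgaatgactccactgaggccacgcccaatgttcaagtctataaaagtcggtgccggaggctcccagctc
GDF15: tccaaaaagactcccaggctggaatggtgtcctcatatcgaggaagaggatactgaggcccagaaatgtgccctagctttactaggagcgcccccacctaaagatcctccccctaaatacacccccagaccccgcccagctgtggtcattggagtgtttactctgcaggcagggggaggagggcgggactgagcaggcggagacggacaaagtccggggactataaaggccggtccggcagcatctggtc

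With Apatinib, p53 target genes moved in both directions. GADD45A, GADD45B and PHLDA3 rose, PPM1D and ASCC3 fell, and the other 21 members tested were not called. Of the 31 members, 26 had enough counts for the test and 5 (GDF15, TP53I3, SFN, EDA2R and SPATA18) did not. With edgeR's quasi-likelihood test, 3 members were called higher and 2 lower, where a call asked for a Benjamini-Hochberg FDR below 0.05 together with a log2 fold change beyond 0.5 in either direction. These 5 are 19.2% of the members tested, against 11.5% of all 16290 genes tested, where 5.97% were called higher and 5.48% lower. The FDR alone picked the same number of members, 5, against a background of 12.9% of all genes. An unadjusted p under 0.05 was reached by 8 members, and 30.6% of all genes reached it. The groups did not overlap in 8 members (30.8%), a share near the 33.2% seen over all genes. Apatinib was higher in 6 of them (17.5% of all genes) and lower in 2 (15.7%). The median log2 fold change of the 26 members was 0.08, within a range of -0.59 to 1.40, and 19 of them lay above 0. Over all genes tested the median was 0.0028. Of the 5 calls, 1 was kept when controls 1 and 2 were summed as 1 sample, when control 1 was left out, and when control 2 was left out. It was GADD45B in each case, and the calls over all genes then came to 1.75%, 1.65% and 1.80%. The other settings called 2 to 6 members. DESeq2 called 4 members (14.2% of all genes), limma on FPKM 2 (5.03%) and edgeR with no filter on low counts 6 (7.85%). In edgeR, DESeq2's scaling, at least 10 counts in every sample and a replicate block each called the same 5 members (11.4%, 12.0% and 13.6% of all genes). Leaving out Apatinib 1, Apatinib 2, Apatinib 3 or control 3 gave 2, 5, 4 and 6 members, against 4.73%, 8.91%, 12.1% and 15.5% of all genes.

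Levels differed widely among the members. On the FPKM scale, which divides by length, the control mean was 119 for CCNG1, 84.5 for EI24 and 39.3 for NINJ1, but 9.60 for GADD45A, 3.61 for GADD45B and 0.170 for GDF15. With Apatinib GADD45A had 15.3, 48.3 and 14.2 FPKM, so that its mean of 25.9 FPKM rests on Apatinib 2 and was 14.7 FPKM without it, and the mean of GADD45B was 9.46 FPKM. Since the use of strand in counting is not given, the values of 3 members whose exons overlap well expressed genes on the other strand are less certain, namely TP53I11 (TSPAN18, up to 5605 counts), POLH (GTPBP2, up to 2874 counts) and XPC (LSM3, up to 975 counts).

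**Figure D1:**
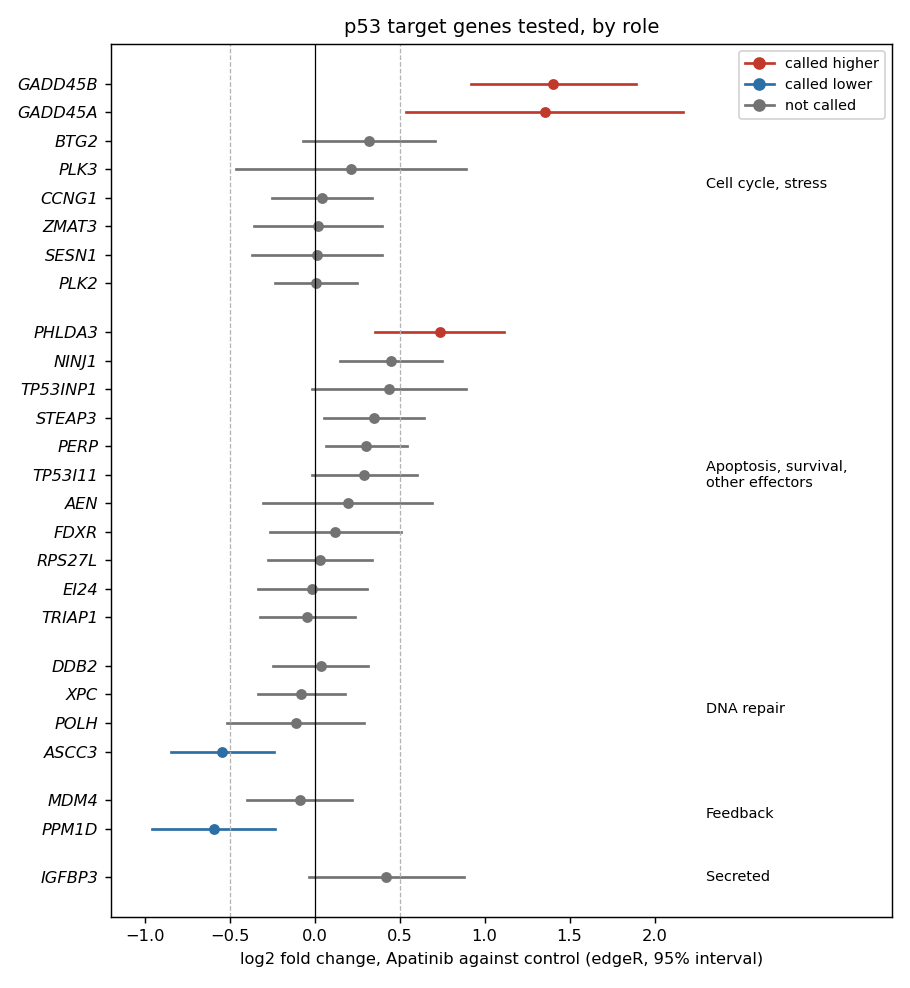
Log2 fold change (Apatinib against control, edgeR) of the 26 members tested, grouped by role, with 95% intervals and dashed lines at 0.5 in each direction; red marks members called higher, blue members called lower and grey members not called. GADD45B and GADD45A stand at 1.40 and 1.35, PHLDA3 at 0.74, PPM1D and ASCC3 at -0.59 and -0.54, and the other members sit closer to 0.

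The stress-shared members GADD45B and GADD45A had the largest log2 fold changes of the 26 members tested. Without Apatinib 2 this held for GADD45B (1.13) only. GADD45A (0.57) then lay below PHLDA3 (0.78) and TP53INP1 (0.60), and PPM1D (-0.78) and ASCC3 (-0.59) were larger in size. In these bulk libraries, more cells that express a gene and more of its RNA per cell cannot be told apart. GADD45B, a small stress protein that binds kinases of the p38 and JNK pathways, had 17.3, 24.6 and 12.9 CPM (counts scaled to 1000000 per library, with edgeR's TMM factors) in Apatinib replicates 1, 2 and 3 and 7.27, 6.82 and 6.64 CPM in controls 1, 2 and 3. Every Apatinib library lay above every control. The rise was 2.65-fold, a log2 fold change of 1.40 with an SE of 0.222 and a 95% interval of 0.92 to 1.89 (edgeR FDR 0.00569). It kept its call under all 13 other settings tried, with an FDR of at most 0.0322.

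GADD45A, its paralog, which halts the cell cycle at G2/M and takes part in repair, had 33.7, 96.5 and 27.4 CPM with Apatinib and 22.0, 20.2 and 19.6 CPM in the controls. The groups did not overlap, but Apatinib 2 stood far above the other libraries. The log2 fold change was 1.35 with an SE of 0.373, with an interval of 0.54 to 2.17 (edgeR FDR 0.0383). Without Apatinib 2 it was 0.57 and the gene was still called (edgeR FDR 0.0305). The call was lost with DESeq2 (FDR 0.0790), with limma on FPKM (FDR 0.107), and with controls 1 and 2 summed (edgeR FDR 0.114).

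GDF15, a secreted stress cytokine of the TGF-β family, had 9, 125 and 5 counts with Apatinib and 3, 9 and 6 counts in the controls. Only Apatinib 2 stood apart, with 7.06 CPM, while the other 5 libraries lay between 0.173 and 0.524 CPM and the groups overlapped. The gene was too low in count for the main test. With no filter on low counts, edgeR gave a log2 fold change of 3.05 (FDR 9.36e-12), whereas DESeq2 gave 3.06 with an FDR of 0.101 and limma on log2(FPKM + 1) gave 0.75 with an FDR of 0.351. The edgeR fit without a filter drew the variance of every gene entirely to the trend, so the spread among the replicates of GDF15 itself did not enter that FDR.

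**Figure D2:**
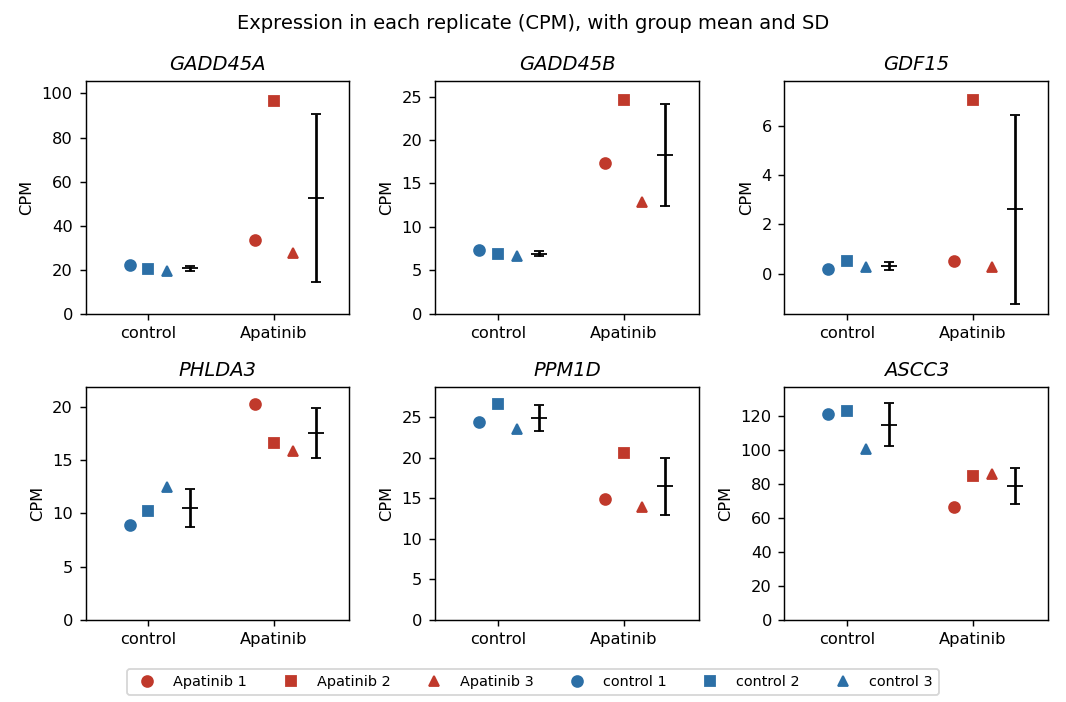
CPM in each replicate (points), with the group mean and SD, for GADD45A, GADD45B, GDF15, PHLDA3, PPM1D and ASCC3 in the Apatinib and control groups. Apatinib 2 is the highest point for GADD45A (96.5), GADD45B (24.6) and GDF15 (7.06), and the groups overlap only for GDF15.

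Set side by side, the 2 stress-shared members that were tested had a median log2 fold change of 1.38, and both were called higher. The other 24 members tested had a median of 0.04, with 17 above 0 and 7 below, and 3 of them (12.5%) were called, 1 higher and 2 lower, beside 11.5% of all genes. Per library, the median deviation of the 2 stress-shared members from the control mean was 1.01, 2.02 and 0.65 on the log2 CPM scale with Apatinib, and 0.085, -0.022 and -0.063 in the controls. For the other 24 members it was 0.10, -0.045 and 0.11 with Apatinib and -0.023, -0.0031 and 0.0053 in the controls. So GADD45A and GADD45B were higher in each Apatinib library, which GDF15 was not, whereas the other members shifted little as a group and not in 1 direction. With Apatinib 2 left out, the medians were 0.85 and 0.12. If BTG2, PLK2 and PLK3, which growth and stress signals also induce, are added to the stress-shared members, their median becomes 0.32 over 5 genes tested. Nothing here tests the difference between these small sets of genes, which were named with earlier results known.

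Among the members that arrest the cell cycle or restrain growth, 8 of 9 were tested, and all 8 had a log2 fold change above 0, with a median of 0.13. Of these signs, those of ZMAT3, SESN1, CCNG1, PLK2 and PLK3 turned when 1 or another replicate was left out. Apart from the GADD45 genes none of them was called, and their values were small. BTG2, an antiproliferative gene, stood at 0.32 (95% interval -0.068 to 0.71). PLK3, a stress-responsive kinase, stood at 0.22 (-0.46 to 0.89), with Apatinib 2 at 11.6 CPM and the other 5 libraries between 4.41 and 8.08. CCNG1 (cyclin G1), the member with the highest control level at a mean of 119 FPKM, had 337, 319 and 415 CPM with Apatinib and 376, 345 and 318 CPM in the controls, and the groups overlapped. PLK2, a kinase of the same family as PLK3, had an interval of -0.23 to 0.25 about a log2 fold change of 0.0089, so a change larger than that in either direction lay outside the interval. SESN1, which restrains mTORC1, and ZMAT3, an RNA-binding protein, stood at 0.01 and 0.02. SFN (14-3-3 sigma) had 1 to 6 counts in every library and was not tested.

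Of the 14 members grouped as genes of cell death, survival and other effects of p53, 11 were tested, 9 lay above 0, and the median log2 fold change was 0.29. The signs of AEN, RPS27L, EI24 and TRIAP1 turned when 1 or another replicate was left out. PHLDA3, which competes with AKT for membrane lipids and so restrains AKT, had 20.2, 16.7 and 15.9 CPM with Apatinib and 8.89, 10.2 and 12.5 CPM in the controls. All 3 Apatinib libraries lay above all 3 controls. The rise was 1.67-fold, a log2 fold change of 0.74 with an SE of 0.174 and an interval of 0.36 to 1.12 (edgeR FDR 0.0227). DESeq2 and limma on FPKM called it too, but the FDR passed 0.05 without Apatinib 1 (0.0718) and with controls 1 and 2 summed (0.104), both with edgeR. Its exons overlap those of a gene on the same strand, AC096677.2, which had at most 30 counts in any library.

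NINJ1, PERP and STEAP3, which are surface or vesicle proteins, were higher in CPM in every Apatinib library than in every control without being called. Of all genes, 17.5% were higher in this way. In FPKM the groups overlapped for STEAP3, with 8.25 in Apatinib 3 and 9.08 in control 1. NINJ1, which mediates rupture of the plasma membrane in dying cells, had 119, 97.6 and 93.5 CPM against 71.3, 70.4 and 85.7 CPM, and a log2 fold change of 0.45 (interval 0.15 to 0.75, edgeR FDR 0.0528). Without control 3 it was called, at 0.55 (edgeR FDR 0.0267). PERP, a desmosome protein, had 183, 178 and 189 CPM against 146, 154 and 145 CPM and stood at 0.30 (0.066 to 0.54, edgeR FDR 0.0856). STEAP3, a ferrireductase of endosomes, stood at 0.35 (0.052 to 0.64, edgeR FDR 0.108). These intervals begin above 0, yet the adjusted values did not pass in the reported fit. For NINJ1 the FDR was under 0.05 with DESeq2 (0.0256) and in edgeR with no filter (0.0281), where its log2 fold change of 0.45 and 0.46 fell short of the limit.

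TP53INP1, a stress protein active in autophagy and cell death, had 7.50, 5.98 and 9.79 CPM against 5.77, 5.39 and 6.001 CPM. Its lowest Apatinib library thus lay just under the highest control, and the log2 fold change was 0.44 (-0.014 to 0.89, edgeR FDR 0.176). TP53I11 stood at 0.29 (-0.017 to 0.60), AEN, a nuclease, at 0.19 (-0.30 to 0.69) and FDXR, a mitochondrial reductase, at 0.12 (-0.26 to 0.51). The remaining members tested in this class were RPS27L at 0.03, EI24 at -0.014 and TRIAP1 at -0.043. TP53I3 had 3 to 11 counts and EDA2R 0 to 4 counts in a library, with both groups overlapping. SPATA18 had 0 counts in all 6 libraries, which allows up to 0.137 to 0.175 CPM depending on the library (3 counts, for counting error only).

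Of the 4 members of DNA repair, all were tested, 1 was called lower (5.48% of all genes were), and the median log2 fold change was -0.095. ASCC3, a helicase that opens alkylated DNA and also resolves stalled ribosomes, had 66.7, 84.8 and 85.8 CPM with Apatinib and 122, 123 and 101 CPM in the controls. Every Apatinib library lay below every control, and the fall was a log2 fold change of -0.54 with an SE of 0.139 (interval -0.85 to -0.24, edgeR FDR 0.0302). It was not called by limma on FPKM (FDR 0.110), with controls 1 and 2 summed (edgeR FDR 0.137) or without Apatinib 1 (edgeR FDR 0.0876). DDB2, the damage sensor of nucleotide excision repair and the member with the complete p53 element shown above, had 57.3, 46.8 and 55.1 CPM against 49.8, 49.8 and 55.6 CPM. The groups overlapped, and the log2 fold change was 0.04 with an interval of -0.24 to 0.31. XPC, its partner in damage recognition, stood at -0.078 and POLH, a polymerase that copies past lesions, at -0.11.

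Both feedback members had log2 fold changes below 0. PPM1D (WIP1), the phosphatase that removes phosphates from p53 and from its kinases, had 14.95, 20.55 and 13.97 CPM with Apatinib and 24.4, 26.7 and 23.6 CPM in the controls. The highest Apatinib library lay below the lowest control, with a log2 fold change of -0.59, an SE of 0.166 and an interval of -0.96 to -0.23 (edgeR FDR 0.0393). This call too was lost with limma on FPKM (FDR 0.0918) and with controls 1 and 2 summed (edgeR FDR 0.135), and also in edgeR without Apatinib 1 (FDR 0.112) and without Apatinib 3 (FDR 0.0969). MDM4, which masks the activation domain of p53, stood at -0.089 (-0.40 to 0.22), was not called, and reached 0.030 when a replicate was left out. Of the secreted members, IGFBP3, which binds insulin-like growth factors, had 44.7, 71.0 and 35.6 CPM against 37.9, 37.7 and 37.4 CPM. Apatinib 3 lay below all controls and Apatinib 2 far above them, and the log2 fold change was 0.42 (-0.036 to 0.88, edgeR FDR 0.197).

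**Figure D3:**
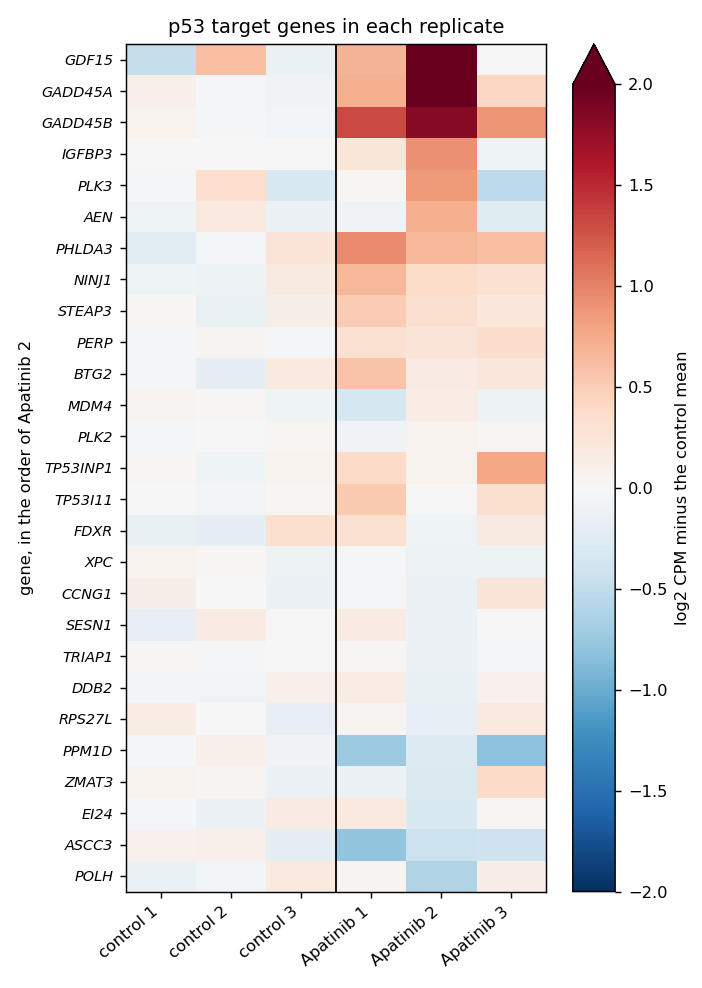
Log2 CPM minus the control mean for the 26 members tested and GDF15 (rows) in each of the 6 libraries (columns), ordered by the value in Apatinib 2, with the colour scale ending at 2 in each direction. GDF15, GADD45A and GADD45B are strongest in Apatinib 2, whereas PPM1D and ASCC3 are below 0 in all 3 Apatinib libraries.

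Apatinib 2 differed from the other Apatinib libraries for a part of the members. On the log2 scale it exceeded the mean of Apatinib 1 and 3 by 3.84 for GDF15, 1.66 for GADD45A, 1.10 for PLK3, 0.87 for AEN, 0.83 for IGFBP3 and 0.72 for GADD45B. The same difference was -0.70 for POLH and -0.51 for TP53INP1. Among the 26 members it was the highest Apatinib library in 8 (30.8%) and the lowest in 14 (53.8%), where all genes gave 35.9% and 35.3%. The same library was the highest of its group for 19 of 20 genes induced by ATF4 and CHOP and the lowest for 20 of 20 cell cycle genes repressed through p21 and the DREAM complex. Their medians of Apatinib 2 minus the mean of the others were 1.10 and -0.65 on the log2 scale. The part of this library in the results was not tested beyond the values given without it.

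The rest of the pathway was described by lists that share no gene with the members. MDM2, the ligase that degrades p53 and at the same time a target of it, had 24.5, 28.8 and 29.5 CPM against 33.1, 37.6 and 31.6 CPM. It was lower in each Apatinib library than in each control but not called, at -0.30 (edgeR FDR 0.157). Of 16 regulators of p53, 14 were tested and 3 were called, all lower (21.4%, against 5.48% of all genes called lower). They were the damage kinases ATM at -0.73 (edgeR FDR 0.0221), ATR at -0.67 (edgeR FDR 0.0472) and CHEK1 at -0.59 (edgeR FDR 0.0239). For ATR the groups overlapped, with 31.6, 34.2 and 44.65 CPM with Apatinib and 66.2, 68.6 and 41.3 CPM in controls 1, 2 and 3. ATM did not overlap, but control 3 had 151 CPM, against 227 and 225 CPM in controls 1 and 2. With Apatinib, ATM reached 142 CPM. Without Apatinib 2, edgeR called 0 of the 14 (8.91% of all genes were called), with 5 at an unadjusted p under 0.05, while the median was -0.13 against -0.16 with all libraries.

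Among 30 other genes that p53 can induce, 28 were tested, 2 were called higher and 1 lower (10.7%), near the 11.5% of all genes called. Their median was 0.05 on the log2 scale. Without Apatinib 2 it was -0.036, with 13 genes above 0 and 15 below. Then 1 was called higher and 1 lower (7.14%, against 8.91% of all genes). CDKN1A (p21), the inhibitor of cyclin-dependent kinases, had 16.5, 21.7 and 13.6 CPM with Apatinib and 9.81, 10.5 and 11.3 CPM in the controls. Every Apatinib library lay above every control, and the gene rose by 0.72 on the log2 scale (edgeR FDR 0.0308). APAF1, the core of the apoptosome, fell at -0.60 (edgeR FDR 0.0393). All 20 genes of the list repressed through p21 and DREAM had log2 fold changes below 0, with a median of -0.54, and 8 (40%) were called lower, against 5.48% of all genes. Without Apatinib 2 all 20 were still below 0, with a median of -0.35, and 4 were called lower (3.63% of all genes). Among the 20, in the reported fit, CDK1 stood at -1.02, BRCA1 at -1.09 and PLK4 at -1.12. For each of them control 3 was the lowest control, as for BRCA1 with 142, 144 and 92.4 CPM in controls 1, 2 and 3.

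The 2 lists of other stress regulators stood above 0 as a whole. Of the 20 genes induced by ATF4 and CHOP, all were above 0, 8 (40%) were called higher, against 5.97% of all genes, and the median log2 fold change was 0.84. Without Apatinib 2, 16 of the 20 were above 0, 7 were called higher (5.28% of all genes), and the median was 0.33. PHGDH (1.33), PSAT1 (1.46) and NUPR1 (1.89) had the smallest p-values, the first of them with an edgeR FDR of 0.000437. DDIT3, which encodes CHOP, had 16.1, 43.4 and 10.7 CPM against 15.3, 13.3 and 12.6 CPM, so that, as for GDF15, Apatinib 2 alone stood apart. Of the 19 immediate early genes tested, all were above 0, 7 (36.8%) were called higher, and the median was 0.84, with CYR61 at 2.15, CTGF at 2.22 and FOS at 3.25. Without Apatinib 2, 16 of these 19 were above 0, 7 were called higher, and the median was 0.35. ATF3, CHEK1, MDM2 and SESN2 each belong to 2 of the lists. Beside these medians of 0.84 stand 1.38 for the 2 stress-shared members tested and 0.04 for the other members, or 0.85 and 0.12 without Apatinib 2. No list was tested as a set. The calls in these lists are not given with controls 1 and 2 summed, where calls over all genes fell from 1866 to 292.

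**Figure D4:**
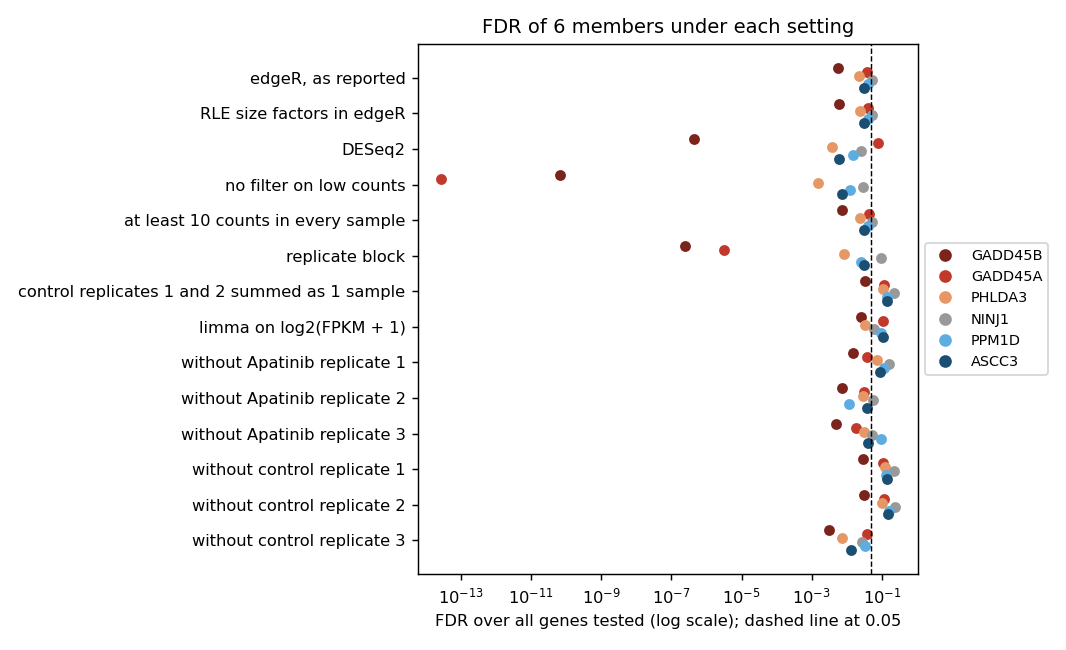
FDR (log axis) of GADD45B, GADD45A, PHLDA3, NINJ1, PPM1D and ASCC3 under the 14 settings, the reported edgeR fit included, with a dashed line at 0.05. GADD45B alone stays under the line in every setting, with its highest value at 0.0322, while the other 5 lie above it when controls 1 and 2 are summed or either of them is left out.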

How the data were processed

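RNA sequencing covered 3 Apatinib and 3 control replicates of SW872 cells. The authors deposited a table of raw counts, whole numbers not normalized, for 57773 genes, and FPKM values for each sample. The submitters' processing notes name CASAVA, STAR 2.7.1a and hg19, while the counting program, its use of strand and the annotation are not given in the sources used here. Exons of 8 of the 31 members overlap another gene in GENCODE 29, so their reads may be shared. Within the FPKM values of Apatinib 1 stood 1 further column under the label of control 3, and it was not used.

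In R 4.3.3, genes were filtered with filterByExpr, scaled by TMM and tested with edgeR 4.0.16 (quasi-likelihood F test, Benjamini-Hochberg adjustment over 16290 genes). A call needed an FDR below 0.05 together with a log2 fold change beyond 0.5 in either direction. CPM values use the TMM factors, log2 CPM a prior count of 2, and intervals are at 95%. The SE is the log2 fold change divided by the square root of F. The test was checked on simulated data with independent replicates and 1 dispersion for all genes. That check does not cover controls as close as 1 and 2 or a library as different as Apatinib 2. DESeq2 1.42.0, limma 3.58.1 on log2(FPKM + 1) for genes with a mean FPKM above 0.5, other filters and scaling, a replicate block, controls 1 and 2 summed and leaving out each replicate were alternatives. The study calls the samples biological replicates. If they were not separate cultures, p-values measure technical spread only.

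The members and lists were chosen with earlier results of these data known. Every member is accounted for. Those called, those whose call changed under an alternative and the stress-shared members are given per sample, and each other list by its 3 smallest p-values plus MDM2 and CDKN1A. Some genes that this rule names are not reported here. Promoters are from RefSeq, matched by symbol.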

Additional observations from a re-analysis of the deposited data

How the results depend on the processing

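With DESeq2's scaling in edgeR, with at least 10 counts in every sample and with the replicate block, 3 members were called higher and 2 lower, as in the reported fit, and they were the same genes. DESeq2 called 2 higher and 2 lower (6.92% and 7.28% of all genes), and edgeR with no filter 4 higher and 2 lower (3.98% and 3.87%). With controls 1 and 2 summed, 1 member was called higher and 0 lower by edgeR (1.24% and 0.508% of all genes), with 2 lower at an unadjusted p under 0.05. Limma on log2(FPKM + 1) called 2 higher and 0 lower (3.51% and 1.52%), again with 2 lower at an unadjusted p under 0.05. Leaving out each replicate gave 1 to 4 members called higher and 0 to 2 called lower. The median log2 fold change of the stress-shared members ranged from 0.85 to 1.64 when a replicate was left out, and was 0.32 with BTG2, PLK2 and PLK3 added. That of the other members ranged from 0.017 to 0.12.

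Over all genes, edgeR called 1866 genes, against 292 with controls 1 and 2 summed, 275 without control 1, 300 without control 2, 795 without Apatinib 1 and 796 with limma on FPKM. The replicate numbers did not pair the samples. The correlations of same-numbered samples were -0.259, 0.0808 and -0.220, and 0 of 6 samples correlated best with their own number. The replicate block gave 2215 calls over all genes, and ZMAT3 then stood at -0.0044. The fits with the block and with no filter drew the variance of each gene entirely to the trend, so the spread of a single gene did not enter their FDR values.

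Signs of members near 0 changed with the setting. With limma on FPKM, ZMAT3 stood at -0.058, RPS27L at -0.023 and EI24 at 0.026, and with controls 1 and 2 summed PLK2 stood at -0.0048. When each replicate was left out, the log2 fold change ranged from -0.20 to 0.16 for ZMAT3, -0.069 to 0.094 for SESN1, -0.020 to 0.12 for DDB2, -0.15 to 0.38 for AEN, -0.071 to 0.0025 for TRIAP1 and -0.051 to 0.13 for RPS27L. It ranged from -0.074 to 0.13 for CCNG1, -0.018 to 0.047 for PLK2, -0.24 to 0.49 for PLK3, -0.25 to 0.092 for POLH, -0.13 to 0.12 for EI24 and -0.22 to 0.030 for MDM4. The cause of these changes was not tested. At this depth TP53I3, SFN, EDA2R, SPATA18 and, outside Apatinib 2, GDF15 were too low for the reported test.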
